A study of Mus musculus with 6 samples.

Results

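The D-type cyclins, their kinases and the inhibitors of those kinases were compared between spheres grown from mammary tumors of FRS2beta knockout mice and of mice heterozygous for FRS2beta (hetero). The genes are the cyclins Ccnd1, Ccnd2 and Ccnd3, the kinases Cdk4 and Cdk6, the CIP/KIP inhibitor Cdkn1b and the INK4 inhibitors Cdkn2a, Cdkn2b, Cdkn2c and Cdkn2d. They were found on the array through the RefSeq accession of each probe, which gave 15 probes for the 10 genes, among 55681 probes for 20660 named genes. Every one of the 15 probes was well above background on all 6 arrays, so all 10 genes passed the filter on dim probes and are among the 15838 genes tested.

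Spheres are free-floating clusters of cells grown without serum. Both genotypes grew in medium with EGF (20 ng/mL), bFGF (20 ng/mL) and heparin (2 mg/mL). RNA of 3 knockout and 3 hetero samples was read on 6 Agilent arrays in a single colour, Cy3. The control mice are hetero and carry the FRS2beta knockout allele too. How the allele was made, the strain, the tumor model, the age of the mice and whether the replicates came from separate animals are not given in the sources used here. The p-values therefore measure the spread between these 6 samples, and that spread may be technical.

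Progression from G1 into S phase is set in part by complexes of a D-type cyclin with CDK4 or CDK6, which phosphorylate the retinoblastoma protein and so free E2F factors to switch on genes of DNA replication. Growth factor signalling raises D-type cyclins, and cyclin D1 is needed for the growth of the mammary gland and for tumors driven by ErbB2 or Ras in mice. INK4 proteins bind CDK4 and CDK6 and keep cyclin D off, while p27, the product of Cdkn1b, binds cyclin-CDK complexes and blocks CDK2. The Cdkn2a gene encodes p16INK4a and, from another first exon and reading frame, p19ARF, which restrains MDM2.

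Values are log2 relative signals: the log2 processed signal of a probe minus the 75th percentile of its array, so that 0 is a probe as bright as that percentile. Fold changes are knockout over hetero, from limma, with p-values adjusted by the Benjamini-Hochberg method over all genes (or all probes) tested and a threshold of 0.05. All 6 arrays lay on 1 slide. Processed signals had a 75th percentile of 465 to 487 in knockout arrays and of 404 to 416 in hetero arrays. Across genes, the correlation between arrays was 0.995 to 0.998 within a genotype, and 0.966 to 0.971 when a knockout array was set against a hetero array. The probe for Frs3, the gene of FRS2beta, was well above background on 0 of 3 knockout arrays and on 1 of 3 hetero arrays, so it does not check the labels.

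Of the 10 genes, 4 were higher in knockout spheres (Ccnd1, Ccnd2, Cdkn2a and Cdkn2b) and 4 were lower (Ccnd3, Cdk6, Cdkn1b and Cdkn2c), while Cdk4 and Cdkn2d did not pass. Over all genes tested, 60.4% passed, 27.9% higher and 32.5% lower, so a call was common on these arrays and the count of 8 among 10 sets the family little apart. The genotypes did not overlap in 9 of the 10 genes, with knockout arrays above in 4 and below in 5. Over all genes the groups did not overlap in 68.9%, with knockout above in 31.6% and below in 37.3%. The median log2 fold change was -0.07 over the 10 genes and -0.03 over all genes. Changes were small: they ran from -0.77 to 0.36, and the median size of change over all genes was 0.22. Each role held changes in both directions, or a change beside a gene that did not pass, except the single CIP/KIP member. Among the 15 probes, 6 were higher and 7 lower, where 47.0% of all probes passed, 19.4% higher and 27.6% lower. The genotypes did not overlap in 14 of the 15 probes, against 59.0% of all probes. Ccnd3, Cdk4, Cdkn2a and Cdkn2b had more than a single probe, and the probes of each had the same sign. Ccnd1, Ccnd2, Cdk6, Cdkn1b, Cdkn2c and Cdkn2d each rest on a single probe.

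Scaling matters at this size of change. When each array was scaled to its E1A spike-in spots, the median change over all genes moved by 0.35 log2 units, and the split of calls became 9368 higher and 1218 lower, against 4416 and 5155. Under that scaling Ccnd1, Ccnd2, Cdkn2a and Cdkn2b stayed higher and Cdkn2c stayed lower, each past the threshold, while Ccnd3, Cdk4 and Cdkn1b changed sign without passing, Cdk6 stayed negative without passing, and Cdkn2d was higher. The falls of Ccnd3, Cdk6 and Cdkn1b are therefore relative to the bulk of other genes measured. Spike-in scaling added the same positive amount to every log2 fold change. The sign of Ccnd1, Ccnd2, Cdkn2a and Cdkn2b could therefore not turn under it, and only that of a fall could.

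**Figure D1:**
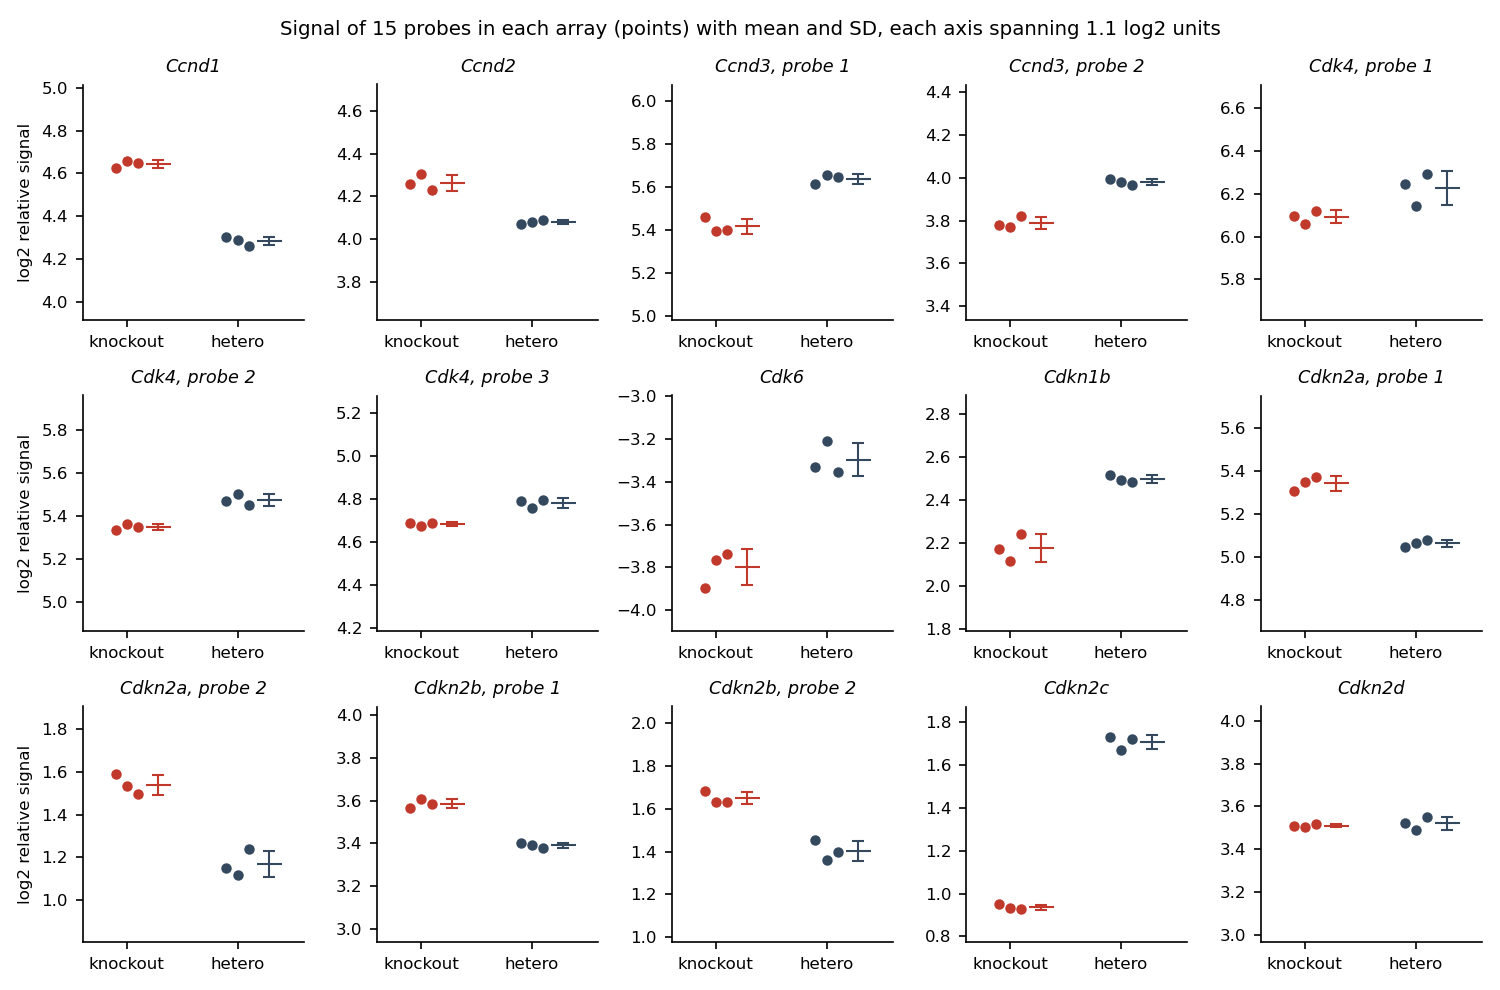
Log2 relative signal (vertical axis) of each of the 15 probes in 3 knockout arrays (red, left) and 3 hetero arrays (dark blue, right), with mean and SD beside the points. Each axis spans the same number of log2 units. The groups separate in all probes but that of Cdkn2d, with the widest gap at Cdkn2c, 0.94 in knockout and 1.71 in hetero spheres on average.

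Cyclin D1 and cyclin D2 were higher in knockout spheres and cyclin D3 lower. Ccnd1, the D-type cyclin of mammary epithelium, had log2 relative signals of 4.63, 4.66 and 4.65 in knockout spheres, against 4.30, 4.29 and 4.26 in hetero spheres. Every knockout array was above every hetero array, by much more than the replicates of a genotype differed. The gene was 1.28-fold higher (log2 fold change 0.36 ± 0.02 SE, n = 3 each, limma adjusted p = 8.8e-05), and its change was larger than that of 67.6% of genes.

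Ccnd2, a D-type cyclin best known from ovary and blood cells, had signals of 4.26, 4.30 and 4.23 in knockout spheres, against 4.07, 4.08 and 4.09 in hetero spheres. The groups did not overlap, and the knockout arrays were spread more widely. It was 1.13-fold higher (0.18 ± 0.03 on the log2 scale, SE, limma adjusted p = 0.00254). With spike-in scaling the log2 fold changes of Ccnd1 and Ccnd2 were 0.71 and 0.53.

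Ccnd3, the D-type cyclin prominent in lymphoid cells, was read by a pair of probes designed to different transcripts. The brighter one, for NM_001081636, had 5.46, 5.40 and 5.40 in knockout spheres, against 5.61, 5.65 and 5.65 in hetero spheres. The other, for NM_007632, had 3.78, 3.77 and 3.82 in knockout spheres, against 3.99, 3.98 and 3.97 in hetero spheres. Both probes were lower in every knockout array, by 0.22 ± 0.03 and 0.19 ± 0.03 log2 units (SE). The adjusted p of limma was 0.00136 for the gene and 0.00416 for the second probe, adjusted over all probes. With quantile scaling the change of the gene was -0.08 (limma adjusted p = 0.0876), and with spike-in scaling it was 0.13 (adjusted p = 0.151), so the call rests on the scaling.

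The change of one cyclin against another within an array does not depend on a constant scaling. The log2 ratio of Ccnd1 to Ccnd3 was 0.58 higher in knockout than in hetero arrays, that of Ccnd2 to Ccnd3 was 0.40 higher, and that of Ccnd1 to Ccnd2 was 0.18 higher. The ratios of knockout and hetero arrays did not overlap in any of these 3 pairs, nor in any of the 10 pairs of genes that share a role. Many of these pairs have a gene in common, and the share over other gene pairs was not computed. Of single genes, 68.9% did not overlap, so the count does not set these pairs apart. Each pair reached an exact two-sided permutation p of 0.1, the smallest that 3 against 3 arrays allow, and 0.1 after adjustment over the 10 pairs, so no pair can pass a threshold of 0.05 in this design.

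Ccnd3 lies close to the targeted locus: in the RefSeq order of chromosome 17 it is the 6th protein-coding gene from Frs3. Of the 12 protein-coding genes on each side of Frs3, 16 were tested, Ccnd3 among them. In knockout spheres 7 of these were higher and 6 lower, and their median log2 fold change was -0.04, against -0.03 over all genes. A shorter list of 12 genes chosen by name, of which 10 were tested, held 3 higher and 6 lower (3 higher and 2 lower with spike-in scaling). Tomm6, next to Frs3 and a subunit of the mitochondrial import channel, fell by 0.28 ± 0.04. Med20, a Mediator subunit between Frs3 and Ccnd3, fell by 0.21 ± 0.03, whereas Bysl, a ribosome biogenesis factor beside Ccnd3, rose by 0.17 ± 0.02 (SE). Taf8, a TFIID subunit on the other side of Ccnd3, fell by 0.30 ± 0.02. AI661453, on the far side of Taf8, rose by 1.103 ± 0.023. In the shorter list the 4 with the smallest p were Guca1a (-2.23 ± 0.11), Tfeb (0.50 ± 0.03), Taf8 and Trerf1 (-0.66 ± 0.05). Guca1a was dim, and with normexp its change was -1.104. With spike-in scaling Tomm6, Med20 and Taf8 changed sign and did not pass. Whether the position bears on the change of Ccnd3 was not tested.

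The kinases of the cyclin D complexes moved less clearly. Cdk4, which pairs with D-type cyclins in most tissues, was read by 3 probes. The brightest had 6.10, 6.06 and 6.12 in knockout spheres, against 6.24, 6.14 and 6.29 in hetero spheres. Knockout arrays lay below hetero arrays, but hetero replicate 2 stood close to them. The log2 fold change was -0.13 ± 0.05 (SE, 95% confidence interval -0.25 to -0.02), with a limma adjusted p of 0.0507, just short of the threshold. Without hetero replicate 2 it was -0.18 (adjusted p = 0.0116).

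The other probes of Cdk4 had narrower spreads. The second had 5.34, 5.36 and 5.35 in knockout spheres, against 5.47, 5.50 and 5.45 in hetero spheres, a difference of -0.13 ± 0.03 (SE, limma adjusted p over all probes = 0.0169). The third had 4.69, 4.67 and 4.69 in knockout spheres, against 4.79, 4.76 and 4.80 in hetero spheres, a difference of -0.10 ± 0.03 (adjusted p = 0.0327). All 3 probes thus gave a difference of about the same size, and with the mean of the 3 probes the gene passed (-0.12, adjusted p = 0.0072). With quantile scaling the value for Cdk4 was 0.01 and with spike-in scaling 0.22, neither past the threshold (adjusted p = 0.859 and 0.0603).

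Cdk6, the second kinase partner of D-type cyclins, gave a dim signal. Its log2 relative signals were -3.90, -3.76 and -3.74 in knockout spheres, against -3.33, -3.21 and -3.35 in hetero spheres. As processed signals before scaling these were 31.2, 35.9 and 35.9 in knockout spheres and 40.9, 43.6 and 40.7 in hetero spheres, with array medians of 36.8 to 38.1 and 31.1 to 35.2. The groups did not overlap, and the gene was 1.41-fold lower in knockout spheres (-0.50 ± 0.06 on the log2 scale, SE, limma adjusted p = 0.0011). With normexp on the median signal the change was -0.30 (adjusted p = 0.000171), and with spike-in scaling it was -0.15 and did not pass (adjusted p = 0.256). What moved the value was not tested. The array held a single probe for Cdk6, so no second probe checks it.

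Cdkn1b, which encodes p27, was lower in knockout spheres. Its log2 relative signals were 2.17, 2.11 and 2.24 in knockout spheres, against 2.52, 2.49 and 2.49 in hetero spheres. The groups were well apart, with the wider spread among knockout arrays. The gene was 1.25-fold lower (-0.32 ± 0.04 on the log2 scale, SE, limma adjusted p = 0.0010). With spike-in scaling the value was 0.03 (adjusted p = 0.78). Levels of p27 protein are set largely by degradation, which an RNA array does not read.

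The INK4 genes split. Cdkn2a and Cdkn2b, neighbours on chromosome 4 with 0 protein-coding genes between them, were both higher in knockout spheres, Cdkn2c was lower and Cdkn2d did not differ past the threshold. To show what stands before these genes, the 250 bases upstream of the annotated starts at the Ink4 locus and of the outer start of Cdkn2c are printed 5′ to 3′ from RefSeq (GRCm38.p6, all on the minus strand). Capitals mark matches to the E2F motifs TTTCCCGC and TTTGGCGC and to the GC box GGGCGG, searched on both strands.
Cdkn2a, outer start, chr4:89294620-89294869: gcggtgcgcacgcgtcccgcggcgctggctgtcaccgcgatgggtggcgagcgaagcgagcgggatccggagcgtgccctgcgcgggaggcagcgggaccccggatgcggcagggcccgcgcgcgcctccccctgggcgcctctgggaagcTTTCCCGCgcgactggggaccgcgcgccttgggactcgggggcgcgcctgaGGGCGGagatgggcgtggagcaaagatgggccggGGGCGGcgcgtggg
Cdkn2a, inner start, chr4:89282193-89282442: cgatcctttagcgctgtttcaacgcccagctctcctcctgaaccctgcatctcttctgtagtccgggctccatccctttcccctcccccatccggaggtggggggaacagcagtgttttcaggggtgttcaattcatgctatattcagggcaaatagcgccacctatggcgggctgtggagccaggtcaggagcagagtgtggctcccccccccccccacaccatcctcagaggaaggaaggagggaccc
Cdkn2b, chr4:89311033-89311282: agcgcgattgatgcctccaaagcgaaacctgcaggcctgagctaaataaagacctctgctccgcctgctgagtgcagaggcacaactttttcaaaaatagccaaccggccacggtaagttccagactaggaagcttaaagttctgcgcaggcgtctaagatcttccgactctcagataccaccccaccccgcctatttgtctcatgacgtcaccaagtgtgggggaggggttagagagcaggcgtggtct
Cdkn2c, outer start, chr4:109666757-109667006: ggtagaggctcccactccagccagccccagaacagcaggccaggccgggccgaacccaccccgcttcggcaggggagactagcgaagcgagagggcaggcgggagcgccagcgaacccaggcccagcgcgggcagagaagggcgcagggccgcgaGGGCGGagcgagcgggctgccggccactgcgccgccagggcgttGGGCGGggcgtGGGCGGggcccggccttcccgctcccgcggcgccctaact

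The outer Cdkn2a window held 1 E2F match, TTTCCCGC, and 2 GC boxes. Of 32851 promoter windows of that length, 1.3% held either E2F motif and 32.7% held a GC box. The inner Cdkn2a window and the Cdkn2b window held neither, and the outer Cdkn2c window held 3 GC boxes. A further Cdkn2c window, at an inner start, held neither. Their GC contents were 78.4%, 60.0%, 53.6% and 77.2% in the order printed, where the median over all windows was 52.4%. The genes that rose together, Cdkn2a and Cdkn2b, thus did not share a match in these windows. The Cdkn2d window, which is not printed, held 3 GC boxes and 0 E2F matches. Of the 8 members with a window, 6 held a GC box in some window. Counted by window, as the 32.7% is, it was 7 of 11. The printed letters describe the windows and show no binding.

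Both Cdkn2a probes were designed to NM_009877, the RefSeq transcript of p19ARF, which shares its later exons with that of p16INK4a. The sources used here do not give where in the transcript the probes lie, so the signal cannot be assigned to p19ARF or p16INK4a. The brighter probe had 5.31, 5.35 and 5.37 in knockout spheres, against 5.05, 5.07 and 5.08 in hetero spheres, and was 1.21-fold higher (0.28 ± 0.03 on the log2 scale, SE, limma adjusted p = 0.000404). The dimmer probe had 1.59, 1.53 and 1.50 in knockout spheres, against 1.15, 1.12 and 1.24 in hetero spheres, a rise of 0.37 ± 0.05 (adjusted p over all probes = 0.0022). Both probes separated the genotypes.

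Cdkn2b, which encodes p15INK4b, an inhibitor induced by TGF-beta in epithelial cells, had a pair of probes as well. The brighter one had 3.57, 3.61 and 3.58 in knockout spheres, against 3.40, 3.40 and 3.38 in hetero spheres, and was 1.14-fold higher (0.19 ± 0.02 on the log2 scale, SE, limma adjusted p = 0.000883). The other had 1.68, 1.63 and 1.63 in knockout spheres, against 1.45, 1.36 and 1.40 in hetero spheres, a rise of 0.25 ± 0.04 (adjusted p over all probes = 0.00405). The rises of Cdkn2a and Cdkn2b were of like size, and the log2 ratio of the first to the second was 0.09 higher in knockout arrays. With spike-in scaling their log2 fold changes were 0.63 and 0.55.

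Cdkn2c, which encodes p18INK4c, a restraint on luminal progenitor growth in the mouse mammary gland, changed most of the 10 genes. Its log2 relative signals were 0.95, 0.93 and 0.93 in knockout spheres, against 1.73, 1.67 and 1.72 in hetero spheres. The arrays of a genotype lay close together and the genotypes far apart. The gene was 1.71-fold lower in knockout spheres (-0.77 ± 0.025 on the log2 scale, SE, limma adjusted p = 7.07e-06), and its change was larger than that of 85.8% of genes. With spike-in scaling it was -0.42 (adjusted p = 0.00255).

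Cdkn2d, which encodes p19INK4d, had 3.51, 3.51 and 3.52 in knockout spheres, against 3.52, 3.49 and 3.55 in hetero spheres. The groups overlapped, and the difference was -0.01 ± 0.02 (SE, 95% confidence interval -0.07 to 0.05, limma adjusted p = 0.746). With spike-in scaling it was 0.34 (adjusted p = 0.00798). Within arrays, the log2 ratio of Cdkn2c to Cdkn2d was 0.76 lower in knockout spheres, that of Cdkn2a to Cdkn2c was 1.05 higher and that of Cdkn2b to Cdkn2c was 0.96 higher, with no overlap between genotypes.

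**Figure D2:**
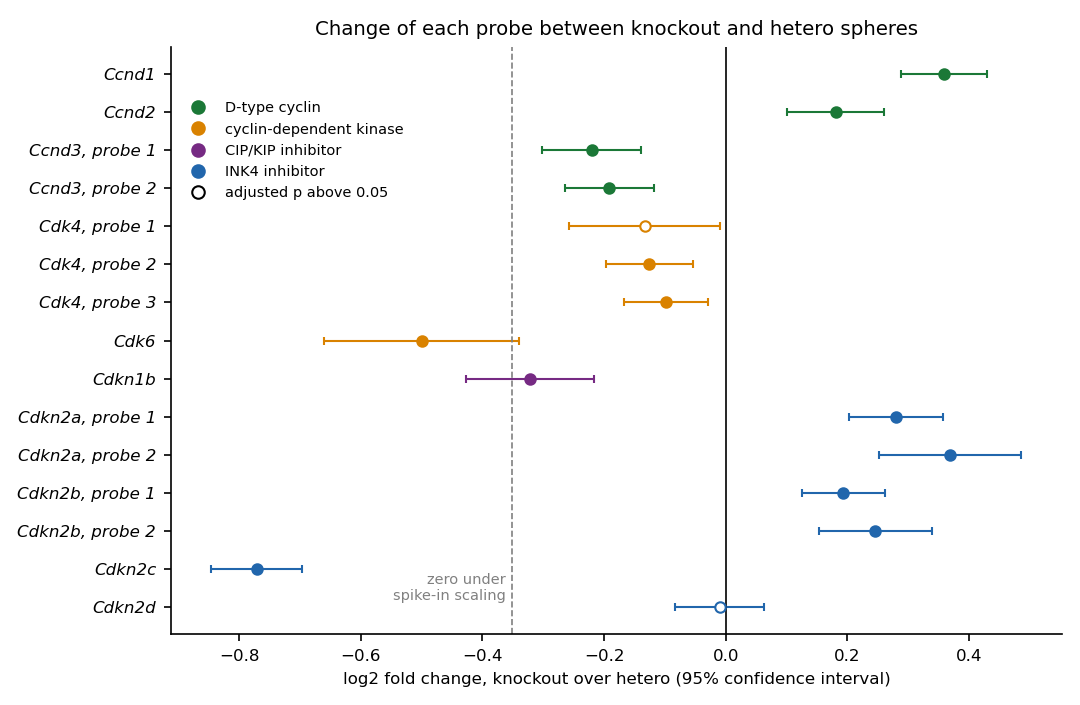
Log2 fold change, knockout over hetero, of each of the 15 probes (horizontal axis, with 95% confidence intervals from the fit over all probes), coloured by role, filled where the adjusted p is under 0.05. The dashed line marks where zero would lie under spike-in scaling, -0.35. Cdkn2c lies left of it, the Cdk6 and Cdkn1b intervals span it, and Ccnd1, Ccnd2, Cdkn2a and Cdkn2b lie right of both lines. The intervals are those of the main scaling and do not give the spread under spike-in scaling. In the gene fit the SE of Cdkn2c was 0.08 with spike-in scaling, against 0.025.

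Genes around the cyclin D step were described from lists by role. Counts in these lists stand beside 27.9% higher and 32.5% lower over all genes tested. Among the pocket proteins, the substrates of cyclin D complexes, Rb1 rose by 0.76 ± 0.03 (SE, limma adjusted p = 7.76e-06), about as much as Cdkn2c fell. Rbl2 fell by 0.17 ± 0.05 (0.19 with spike-in scaling, a change of sign that did not pass), and Rbl1 was at -0.0017 ± 0.044 (adjusted p = 0.977). Of 10 E2F and DP genes, 6 were higher and 2 lower, with a median of 0.12, against -0.03 over all genes. E2f2 rose by 0.39 ± 0.03 and E2f8 and E2f6 by 0.37 ± 0.05 and 0.12 ± 0.02, while E2f1 fell by 0.19 ± 0.03. With spike-in scaling E2f1 changed sign to 0.16 and did not pass. With median scaling E2f1, E2f6 and Rbl2 did not pass (limma adjusted p = 0.0625, 0.118 and 0.128).

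The other CIP/KIP inhibitors went opposite ways. Cdkn1c, an imprinted gene that encodes p57, fell by 2.71 ± 0.03 log2 units (SE, limma adjusted p = 2.6e-07), a larger fall than any of the 10 genes showed. Cdkn1a, which encodes the p53 target p21, rose by 0.17 ± 0.02 (adjusted p = 0.00094). Both kept their direction and their call with quantile, median and spike-in scaling and with normexp.

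Downstream genes either did not pass or were slightly higher, with 1 exception, and more of them passed with spike-in scaling. Of 5 genes for cyclin E, cyclin A and CDK2, 3 were tested, and Ccna2 rose by 0.16 ± 0.03, while Cdk2 (0.07 ± 0.04, adjusted p = 0.177) and Ccne1 (0.08 ± 0.05, adjusted p = 0.215) did not pass. Ccne2 and Ccna1 stayed below that background limit on every array. Of 16 DNA replication genes, 5 were higher and 1 lower, with a median of 0.05, so most did not pass, whereas with spike-in scaling 13 were higher and 0 lower, with a median of 0.40. Rrm1 and Rrm2, subunits of ribonucleotide reductase, rose by 0.25 ± 0.02 and 0.26 ± 0.03, and the helicase subunits Mcm7 and Mcm5 by 0.19 ± 0.03 and 0.24 ± 0.05. The exception was Mcm4, another helicase subunit, at -0.17 ± 0.04 (limma adjusted p = 0.0132), whose sign turned with spike-in scaling. Mcm4 did not pass with quantile or median scaling (limma adjusted p = 0.0598 and 0.138). Of 11 mitotic genes tested, 8 were higher and 0 lower, with a median of 0.19, among them Mki67 (0.14 ± 0.02), Foxm1 (0.25 ± 0.04), Ccnb1 (0.19 ± 0.03) and Cdc20 (0.21 ± 0.04). With spike-in scaling 11 of the 11 mitotic genes and 3 of the 3 cyclin E, cyclin A and CDK2 genes were higher, with medians of 0.54 and 0.43. Over all 15838 genes, 9368 were higher with that scaling, and the median was 0.32. Under the main scaling 27.9% of all genes were higher. With median scaling 4 of the 11 mitotic genes passed, and Mki67 and Ccnb1 were not among them (adjusted p = 0.0707 and 0.0547).

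Genes that act on these members at the protein or chromatin level also moved in part. Of 8 tested genes for the turnover of cyclin D and p27, 2 were higher and 2 lower. Fbxo31 and Fbxo4, F-box proteins linked to cyclin D1 degradation, fell by 0.42 ± 0.04 and 0.26 ± 0.03. Fbxw7, which targets cyclin E, rose by 0.36 ± 0.05 and the scaffold gene Cul1 by 0.14 ± 0.03. With spike-in scaling Fbxo31 did not pass (-0.06) and Fbxo4 changed sign (0.09). Of 7 tested Polycomb genes, whose products keep the Ink4 locus silent, 5 were higher and 0 lower, with a median of 0.14: Phc2 rose by 0.42 ± 0.02, Ezh2 by 0.31 ± 0.04, Bmi1 by 0.14 ± 0.03 and Ring1 by 0.17 ± 0.04. With median scaling 2 of the 7 were higher, and with spike-in scaling 7 of the 7, with a median of 0.50. Over all 15838 genes, 27.9% were higher under the main scaling. With spike-in scaling 9368 of them were higher, and the median was 0.32. Rnf2 and Cbx8 were at -0.06 and 0.04 and did not pass (limma adjusted p = 0.245 and 0.533). Whether the Polycomb genes bear on the changes of Cdkn2a and Cdkn2b was not tested.

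Among partners and regulators of ARF, 2 of 6 were higher and 1 lower. Mdm2, which ARF binds, rose by 0.51 ± 0.02 (SE), the repressor gene Tbx2 fell by 0.42 ± 0.11 and Tbx3 rose by 0.08 ± 0.02. With spike-in scaling 4 of the 6 were higher and 0 lower, and Tbx2 was at -0.07 (adjusted p = 0.5). Tbx3 did not pass with median scaling or with normexp (limma adjusted p = 0.273 and 0.0636). Tbx2 was dim, with mean log2 relative signals of -3.05 in knockout and -2.63 in hetero spheres. The nucleolar ARF partner Npm1 was at -0.15 ± 0.06 (limma adjusted p = 0.0598). Of 3 genes of the CDK-activating kinase, Ccnh fell by 0.57 ± 0.04, Cdk7 rose by 0.16 ± 0.02 and Mnat1 was at 0.08 ± 0.04 (adjusted p = 0.115). Of 4 genes whose products bind cyclin D or CDK4, Cdk5 rose by 0.15 ± 0.05 and Ccndbp1, Hspa8 and Cdc37 were at -0.06 ± 0.03, -0.11 ± 0.05 and 0.01 ± 0.03 (adjusted p = 0.0769, 0.125 and 0.716). With median scaling Cdk7 and Cdk5 did not pass (limma adjusted p = 0.0521 and 0.119). Mnat1 passed with normexp (adjusted p = 0.0263) and Cdc37 with quantile scaling (adjusted p = 0.00306). With spike-in scaling Mnat1, Ccndbp1 and Cdc37 were called higher.

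**Figure D3:**
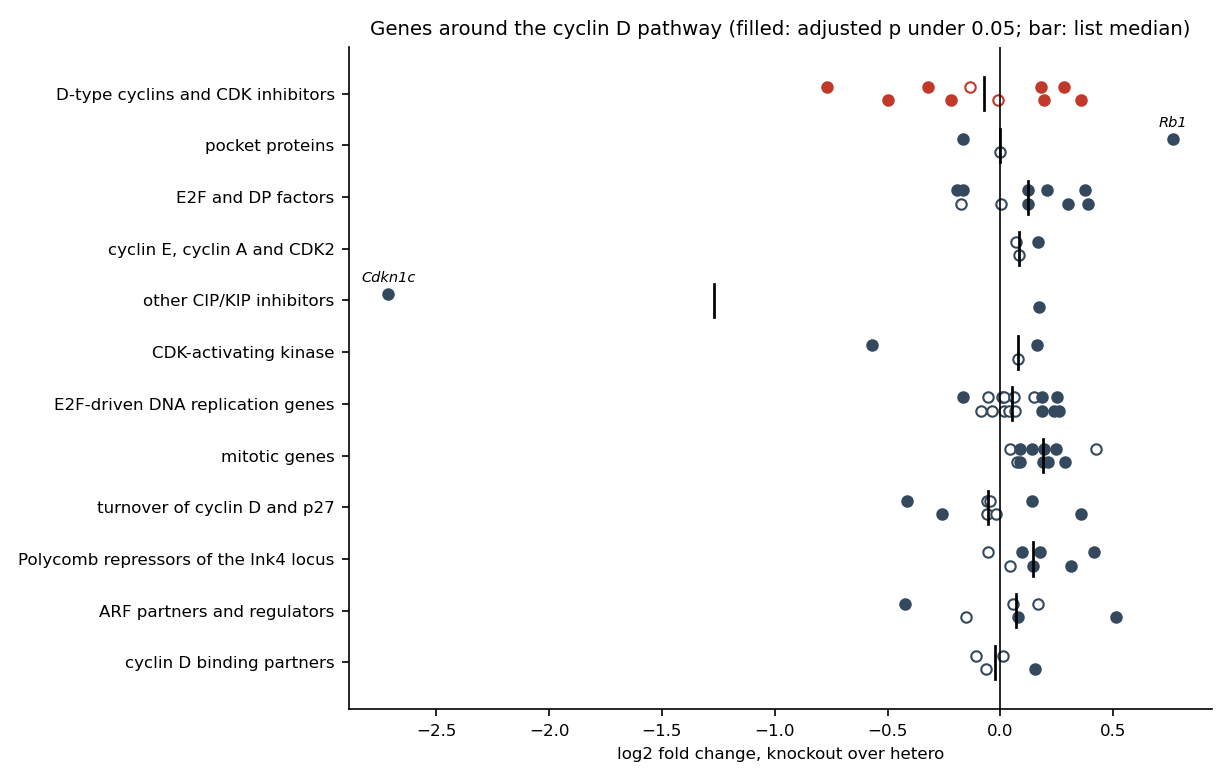
Log2 fold change, knockout over hetero (horizontal axis), of each tested gene of the lists around the cyclin D step, with the 10 genes of the report in red on top, filled points for an adjusted p under 0.05 and a black bar at the list median. Cdkn1c at -2.71 lies far to the left of all other points, and Rb1 at 0.76 is the point furthest to the right.

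Markers of cell types differed between the same arrays. Epithelial markers rose in 9 of 9 genes, with a summed relative signal of 177 to 180 in knockout arrays against 20.2 to 20.3 in hetero arrays. Their genes with the smallest p were Krt8 (3.25), Krt7 (3.65), Krt19 (4.09) and Cldn7 (3.31, log2 fold changes). Macrophage markers fell in 7 of 7 tested genes, with sums of 5.21 to 5.35 in knockout and 12.5 to 12.9 in hetero arrays. Those with the smallest p were Lyz2 (-1.95), Adgre1 (-2.48), C1qc (-1.81) and C1qa (-1.26), and the largest fall was that of Mrc1 (-3.30). Fibroblast markers fell in 6 of 8 and rose in 1, with sums of 1640 to 1700 in knockout and 2130 to 2350 in hetero arrays (4 lower and 2 higher with spike-in scaling). Those with the smallest p were Dpt (-1.61), Pdgfra (-1.32), Col3a1 (-0.55) and Lum (-0.50), and Dcn fell by 0.67. The sums add up different probes and serve only to set the genotypes side by side.

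Endothelial markers fell in 4 of 5 genes (Cldn5 -0.38, Kdr -0.43, Tek -0.54, Pecam1 -0.16), and Cdh5 was at 0.08 (limma adjusted p = 0.112). With spike-in scaling 0 of the 5 were lower and 1 was higher. The sums were 17 to 18.2 in knockout and 22.8 to 23.6 in hetero arrays. Among lymphocyte markers, Cd3d and Cd8a were well above background on 0 arrays. Ms4a1 was higher in knockout arrays, but it was above background on 3 knockout and 0 hetero arrays and passed the filter only through the former. Cd3e fell by 0.56 and Cd79a was at -0.39 (adjusted p = 0.059). The sums were 3.07 to 3.31 in knockout and 4.17 to 4.85 in hetero arrays. Cd3e, by far the brightest of these genes, makes up most of each sum. Of 4 adipocyte markers, Fabp4 fell by 0.26 (0 were lower and 1 higher with spike-in scaling), Adipoq and Plin1 did not pass (adjusted p = 0.355 and 0.552), and the sums were 7.40 to 7.51 in knockout and 8.73 to 9.24 in hetero arrays. Cd3e and Cd79a were not called lower with spike-in scaling. The part of cell makeup in the changes of the cyclin and inhibitor genes was not tested, and in bulk RNA fewer cells of a type and less RNA per cell cannot be told apart.

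**Figure D4:**
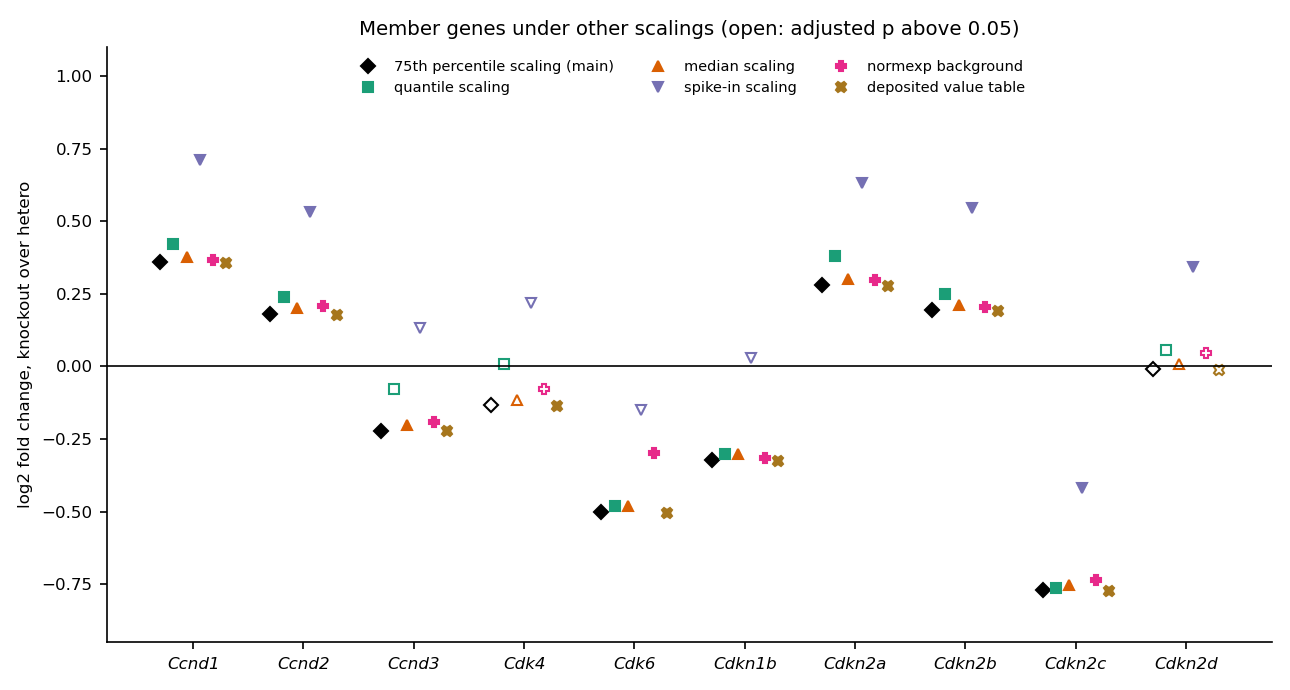
Log2 fold change, knockout over hetero (vertical axis), of the 10 genes under the main scaling and 5 other ways of scaling or background correction, open where the adjusted p is above 0.05. Ccnd1, Ccnd2, Cdkn2a and Cdkn2b lie above 0 and Cdkn2c below 0, filled, in all 6, while Ccnd3, Cdk4, Cdkn1b and Cdkn2d have points on both sides of 0.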

How the data were processed

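The submitters' processing notes name Agilent Feature Extraction 10.7.3.1. The scanner files, as deposited, give each spot's intensity on a linear scale, after background subtraction and with no scaling between arrays. The deposited value table holds intensity as well: each column is that processed signal over 1 number per array (402 to 484), within 1% for 100% of 46182 probes spotted once. It is thus linear, with no centring by gene. Its column medians were 0.163, 0.159 and 0.159 for knockout and 0.161, 0.159 and 0.169 for hetero replicates 1 to 3.

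Control spots (3671 of 62976) and outlier-flagged spots (102 to 129 per array) were left out, and 0 spots were saturated. Log2 signals were averaged over spots of a probe and scaled to the 75th percentile. RefSeq accessions gave 27235 probes a symbol. Coordinates are printed only for RefSeq sequences (GRCm38.p6), since the array headers name mm9. Probes well above background on at least 3 of 6 arrays were kept (35427), and the brightest kept probe stood for its gene. The fit used limma 3.58.1 (lmFit, eBayes; R 4.3.3) with genotype as the only term, over genes and again over kept probes, and was tested on simulated data. With 3 arrays a group, precision is limited by their number.

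The members and lists were chosen with earlier results of these data known. All 10 members are named, and from each list up to 4 tested genes with the smallest p. Others (among them Med20, Bysl, Tomm6, AI661453, Mrc1 and Dcn) were picked after their values were seen, as were the ratios within arrays and normexp on the median signal (offset 50). Both slide rows held both genotypes, while each slide column held 1. An effect of slide column therefore cannot be told apart from genotype, and a block by slide row does not remove it. Skp2, Prickle4 and Cd68 were not analysed here, and 1 lymphocyte marker is not reported here.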

Additional observations from a re-analysis of the deposited data

How the results depend on the processing

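Ccnd1, Ccnd2, Cdkn2a, Cdkn2b and Cdkn2c kept direction and call under all 16 alternatives, with log2 fold changes of 0.35 to 0.71, 0.16 to 0.53, 0.26 to 0.63, 0.18 to 0.55 and -0.79 to -0.42. Several of the 16 could not turn a direction. The other filters and the blocks by replicate or slide row left these log2 fold changes as they were and tested only the call. The mean of probes changed nothing for a gene with a single probe. The deposited values are the same signals over a constant per array. With spike-in scaling 1 member was called lower in place of 4. Under that scaling Ccnd3 (0.13), Cdk4 (0.22), Cdkn1b (0.0299) and Cdkn2d (0.34) changed sign. So did Cdk4 (0.0103) and Cdkn2d (0.0555) with quantile scaling, and Cdkn2d with median scaling (0.0097) and normexp (0.0457). The spike-in shift adds a constant to every gene. By construction, falls smaller than 0.35 turn positive and every rise stays positive, so it does not test the direction of a rise. Without single arrays Cdkn2d ran from -0.0249 to 0.0041 (without hetero replicate 3). Cdk4 passed under 6 alternatives, among them the one without hetero replicate 2. Genes called over all settings ran from 7069 with median scaling to 10586 with spike-in scaling, against 9571. With the replicate block 8496 genes passed, and Cdk4 passed too (adjusted p = 0.0413). Same-numbered arrays deviated with correlations of -0.12, -0.02 and -0.01, and 0 of 6 arrays correlated best with its own number, so the numbers were not taken as pairs. Normexp on the mean signal was not run, since the files used here give the median signal. Cdk6 was the dimmest member, and among the members normexp moved its value most (-0.30, against -0.50); the cause was not tested.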
